A study of Mus musculus with 4 samples.

Results

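The genes Hdc, Tph1, Ddc and Hpgds encode the enzymes by which mast cells make histamine, serotonin and prostaglandin D2. They were taken by gene symbol, from the platform annotation, as every probe set named for 1 of these genes alone. This gave 5 probe sets and 4 of the 6404 genes with values, with 2 probe sets for Hdc and 1 each for Tph1, Ddc and Hpgds. Expression was measured on Affymetrix arrays in the mouse line EML, whose cells are lymphohematopoietic progenitors, in 4 groups with 1 array each. The groups were cells with the KIT mutant Del417-419insY or the KIT mutant D816V, each without stem cell factor (SCF, the ligand of KIT) or with SCF at 250 ng/mL for 48 h. KIT is a receptor tyrosine kinase that mast cells depend on. Del417-419insY alters its extracellular domain and D816V its phosphotransferase domain, and both occur in mastocytosis. What all 4 groups share is a retroviral vector with a mutant KIT, selection in geneticin, growth in medium without growth factor until the cells grew on their own, and sorting for KIT. Each mutant was 1 such population, with no repeat culture named in the labels. EML cells without a mutant were not analysed here, so a difference between the lines cannot be assigned to either of them.

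Mast cells store histamine and, in rodents, serotonin in their granules, and make prostaglandin D2 on activation. Histamine comes from histidine in a single step, by histidine decarboxylase (Hdc). Serotonin comes from tryptophan by a hydroxylation, by tryptophan hydroxylase (Tph1) outside the brain, and then a decarboxylation, by aromatic amino acid decarboxylase (Ddc), which also makes dopamine. Prostaglandin D2 is made from prostaglandin H2, the product of the cyclooxygenases, by the glutathione-dependent hematopoietic prostaglandin D synthase (Hpgds).

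The 4 genes lie on different chromosomes. On RefSeq assembly GRCm38.p6 Hdc spans chr2:126593659-126624025, Tph1 chr7:46644641-46672537, Ddc chr11:11814101-11898144 and Hpgds chr6:65117293-65144981. RefSeq windows from 250 bases before a start site to 50 after it were found for all 4 genes, 2 each for Tph1 and Ddc. They were searched on both strands for 3 kinds of motif of transcription factors that act in mast cells. The GATA motif was an A or T followed by GATAA or by GATAG. The MITF motif was CACGTG, with CATGTG as its other form, and the STAT motif was TTCNNNGAA. Of all 32851 windows of 300 bases, 29.8% held the GATA motif, 20.4% the MITF motif and 8.3% the STAT motif, and 47.9% held at least 1 of them. A match was found in 3 of the 6 windows of the members, 1 each for Hdc, Tph1 and Hpgds, a share near that of all windows, from which nothing is read about their expression. The 3 are printed on the minus strand of GRCm38.p6, from chr2:126618629-126618928, chr7:46672488-46672787 and chr6:65144681-65144980, with the match in capitals.
Hdc: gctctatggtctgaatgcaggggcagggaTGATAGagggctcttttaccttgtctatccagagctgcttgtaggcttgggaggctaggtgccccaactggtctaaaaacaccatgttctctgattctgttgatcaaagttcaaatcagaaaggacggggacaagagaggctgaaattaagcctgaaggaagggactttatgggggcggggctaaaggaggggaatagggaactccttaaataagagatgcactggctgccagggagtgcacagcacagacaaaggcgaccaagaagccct
Tph1: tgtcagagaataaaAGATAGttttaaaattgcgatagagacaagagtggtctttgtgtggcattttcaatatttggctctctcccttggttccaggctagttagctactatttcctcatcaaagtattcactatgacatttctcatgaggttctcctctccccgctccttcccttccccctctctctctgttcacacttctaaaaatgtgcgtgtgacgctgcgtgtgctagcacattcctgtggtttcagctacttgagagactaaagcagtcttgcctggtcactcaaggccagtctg
Hpgds: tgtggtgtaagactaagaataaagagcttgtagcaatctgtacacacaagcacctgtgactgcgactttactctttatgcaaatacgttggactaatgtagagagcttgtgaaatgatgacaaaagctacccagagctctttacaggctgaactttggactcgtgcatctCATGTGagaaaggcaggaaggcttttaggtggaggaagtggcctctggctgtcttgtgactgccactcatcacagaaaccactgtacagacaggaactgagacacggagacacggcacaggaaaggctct
The Hdc window held TGATAG at bases -221 to -216 from the start site, the Tph1 window AGATAG at -236 to -231 and the Hpgds window CATGTG at -80 to -75. The other Tph1 window and both Ddc windows held no match. A match is a description of the letters, and which start site the cells used was not measured.

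Values are on the log2 scale and each probe set has a zero of its own, so a gene can be compared between arrays but not with another gene. Array medians lay between -0.20 and -0.02. The SD over probe sets was 0.79 on the D816V array with SCF, which also had the lowest median, and 0.59 to 0.72 on the others. In bulk RNA a share of cells that express a gene and its level per cell cannot be told apart. The labelled cell type could not be checked by the presence of markers, because the values are relative.

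Comparing the lines asks whether cells with a phosphotransferase domain mutation of KIT express these enzymes differently from cells with an extracellular domain mutation. Tph1, Hpgds and Hdc were higher in D816V cells, by 41.2, 4.57 and 2.91-fold, and Ddc was 8.81-fold lower. The 2 enzymes of the serotonin pathway therefore stood on opposite sides, Tph1 high in D816V cells and Ddc high in Del417-419insY cells. All 4 differences passed limma's test, which set the mean difference of a gene over both conditions against a spread. That spread combined the difference between the gene's SCF responses, with 1 degree of freedom, and a prior shared by all genes, with 4.1. That test called 17.9% of all genes higher and 24.7% lower in D816V cells, 42.6% together, so 4 calls of 4 say little without the sizes of the differences. With 1 array per group the p-values cover neither repeat cultures nor repeat populations, and precision is limited by there being 4 arrays in all.

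**Figure D1:**
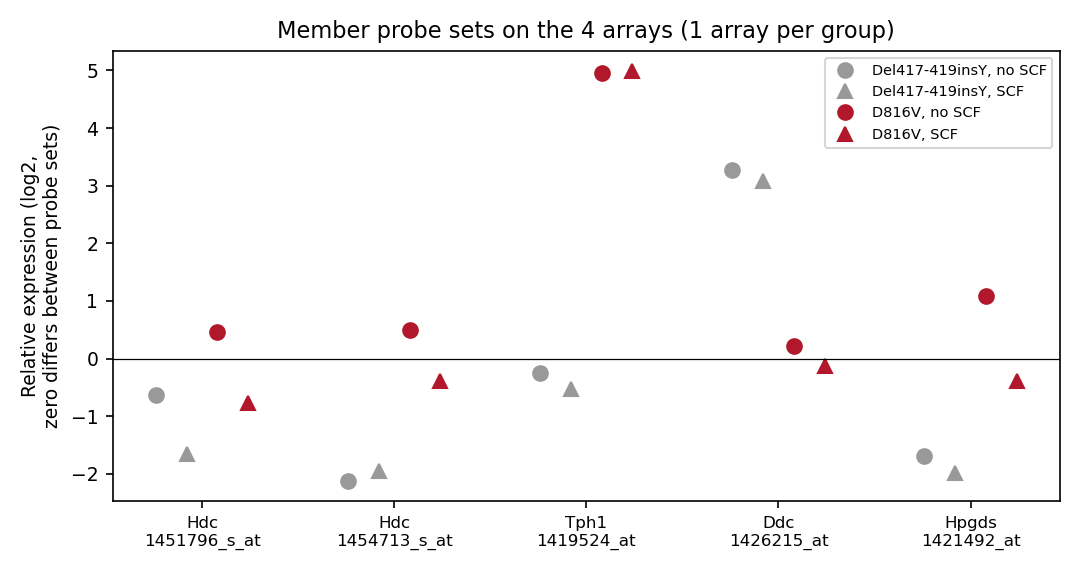
Relative expression (log2) of the 5 member probe sets, 1 point per array, with grey for Del417-419insY, red for D816V, circles without SCF and triangles with SCF. Both D816V points lie above both Del417-419insY points for Tph1, Hpgds and the probe set 1454713_s_at of Hdc, and below them for Ddc, while the probe set 1451796_s_at of Hdc overlaps.

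Tph1, the rate-limiting enzyme of serotonin synthesis outside the brain, stood at -0.26 and -0.53 in Del417-419insY cells without and with SCF, and at 4.96 and 4.98 in D816V cells. The lines did not overlap, and the values within a line lay within 0.28 of each other. The share of all genes without overlap was not counted, so for this and later genes the lack of overlap only describes the values. The difference was 5.21 without SCF and 5.52 with SCF, with a mean of 5.36 (SE 0.13, limma adjusted p = 7.4e-05). Among the 6404 genes only 6 had a higher mean difference. After cyclic loess scaling between the arrays the mean difference was 3.38, or 10.4-fold, and after quantile normalization 4.56, or 23.7-fold.

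Ddc, the enzyme after it, stood at 3.28 and 3.09 in Del417-419insY cells without and with SCF, and at 0.21 and -0.12 in D816V cells. Here too the lines did not overlap. The difference was -3.06 without SCF and -3.21 with SCF, with a mean of -3.14 (SE 0.12, limma adjusted p = 1.7e-04), the 11th lowest of all genes. After cyclic loess it was -4.25, or 19.0-fold, and after quantile normalization -3.95, or 15.4-fold. Both scalings thus moved the serotonin genes further than the other members, Tph1 towards 0 and Ddc away from it, and kept their directions.

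Hpgds, the prostaglandin D2 synthase of blood cells, stood at -1.69 and -1.99 in Del417-419insY cells without and with SCF, and at 1.09 and -0.39 in D816V cells. The lines did not overlap, but the D816V array with SCF lay closer to the Del417-419insY arrays. The difference was 2.78 without SCF, 6.88-fold, and 1.60 with SCF, 3.03-fold, with a mean of 2.19 (SE 0.29, limma adjusted p = 0.00505).

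Hdc, the histamine-forming enzyme, was read by 2 probe sets that gave different sizes. Probe set 1454713_s_at stood at -2.12 and -1.96 in Del417-419insY cells without and with SCF, and at 0.49 and -0.39 in D816V cells. Probe set 1451796_s_at stood at -0.63 and -1.66, and at 0.47 and -0.78. In the former the lines did not overlap, and in the latter the D816V array with SCF lay below the Del417-419insY array without SCF. In each condition, however, D816V was higher in both. The mean differences were 2.09 (SE 0.24, adjusted p = 8.4e-04) and 0.99 (SE 0.14, adjusted p = 0.00216) in the limma fit over all probe sets. Averaged over both, Hdc differed by 1.86 without SCF and 1.23 with SCF, with a mean of 1.54 (SE 0.18, limma adjusted p = 0.00374). Which transcripts of Hdc each probe set reads was not examined.

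**Figure D2:**
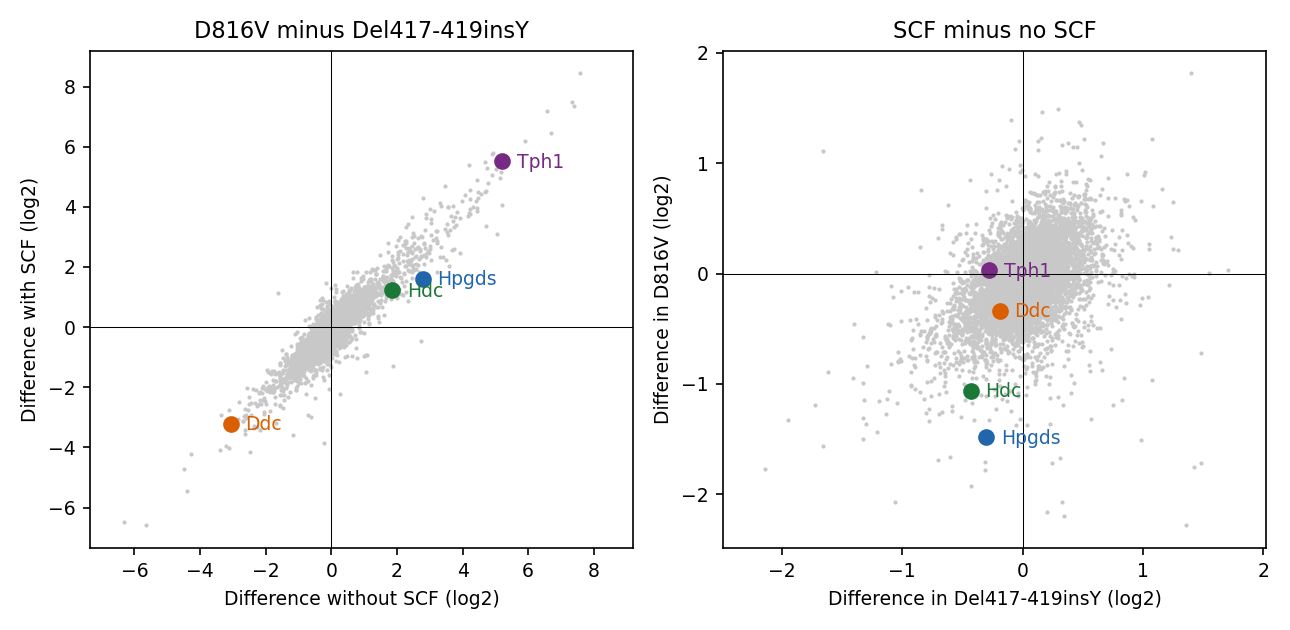
Left, D816V minus Del417-419insY without SCF against that with SCF; right, SCF minus no SCF in Del417-419insY cells against that in D816V cells, both in log2, with 1 grey point per gene of 6404 and the members in colour. Tph1 and Ddc lie far out on opposite sides at left, and Hpgds and Hdc lie low at right, at -1.48 and -1.06 in D816V cells.

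Comparing the arrays of 1 line asks what adding the ligand did there. No member passed limma's test for SCF, which called 0.0% of the 6404 genes; 1186 genes had an unadjusted p under 0.05. The labels give no culture time for the arrays without SCF, so a difference in time may be part of these values. With SCF, Hpgds was at -0.30 relative to no SCF in Del417-419insY cells and at -1.48 in D816V cells (mean -0.89, SE 0.29, limma adjusted p = 0.213). The value in D816V cells was 2.80-fold lower with SCF and the 19th lowest of all genes. Of all genes, 1.31% were 2-fold or more lower with SCF in D816V cells and 0.547% in Del417-419insY cells. For Hdc the same differences were -0.43 and -1.06 (mean -0.75, SE 0.18, limma adjusted p = 0.162).

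The Hdc probe sets split in Del417-419insY cells only. There 1451796_s_at differed by -1.03 and 1454713_s_at by 0.17, while in D816V cells they differed by -1.24 and -0.88. In the fit over all probe sets 1451796_s_at passed for SCF (mean -1.14, limma adjusted p = 0.0118) and 1454713_s_at did not (mean -0.36, adjusted p = 0.439). Whether Hdc passed for SCF thus depended on the probe set, and, for their mean, on the scaling, since it passed after median centring (-0.69, adjusted p = 0.0474).

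The serotonin genes differed less with SCF. For Tph1 the difference was -0.28 in the Del417-419insY line and 0.03 in the D816V line, and for Ddc it was -0.19 and -0.34 (limma adjusted p = 0.639 and 0.307). The SCF response of D816V minus that of Del417-419insY cells was -1.18 for Hpgds, the 44th lowest of 6404 genes, -0.63 for Hdc, 0.30 for Tph1 and -0.15 for Ddc. A difference between the SCF responses cannot be tested with 1 array per group. Its size also depended on scaling. After cyclic loess the responses of Del417-419insY and D816V cells lay nearer to each other for both genes lower with SCF. They were then -0.49 and -0.76 for Hdc and -0.35 and -1.19 for Hpgds.

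Among each other the members fell into unlike patterns over the 4 arrays. Likeness was measured as the Euclidean distance between the 4 values of 2 genes, each centred on its own mean. Hdc and Hpgds were the closest pair, at 0.72, where 45 genes lay nearer to Hdc than Hpgds did. Tph1 and Ddc were the farthest, at 8.51. The nearest of all genes to Hpgds was Mgst2, a microsomal glutathione transferase that can make leukotriene C4, at 0.38. Mgst2 stood at -0.46 and -0.78 in Del417-419insY cells without and with SCF, and at 2.77 and 1.06 in D816V cells. It was thus high in the same line as Hpgds and lower with SCF in that line, by -1.71. Bpifc and Papss2, the latter an enzyme that makes the sulfate donor of the cell, followed at 0.55 and 0.59.

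Nearest to Hdc was Mcpt8, a granule protease known from basophils, at 0.26, with -0.99 and -1.05 in Del417-419insY cells without and with SCF against 1.01 and 0.007 in D816V cells. Agap1 and Pilrb1 followed at 0.30 and 0.35. Nearest to Tph1 were Gbp2, an interferon-inducible GTPase, at 0.26, Metrnl, a secreted protein, at 0.29 and Crybg1 at 0.40. Nearest to Ddc were 9030619P08Rik at 0.19, the zinc finger gene Zfp711 at 0.27 and the G protein subunit gene Gnaq at 0.30. These neighbours depend on scaling. After cyclic loess 1 of the 3 remained for Hdc, 1 for Hpgds and none for Tph1 or Ddc, and Mgst2 was then the 2nd nearest to Hpgds and Mcpt8 the 8th nearest to Hdc.

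Other genes of these pathways came from 9 lists of 136 genes, of which 55 were measured. Of these, 19 were higher and 8 lower in D816V cells, 34.5% and 14.5%, beside 17.9% and 24.7% of all genes. The lists were chosen with earlier results of these data known, so these shares only describe the listed genes. Their median difference was 0.10, beside -0.10 over all genes. Without the SCF term the counts were 16 and 4. After cyclic loess they were 22 and 5, and 1628 genes were then called higher and 1263 lower against 1147 and 1579, a share of 56.3% higher among the calls in place of 42.1%. No pathway gene passed for SCF.

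**Figure D3:**
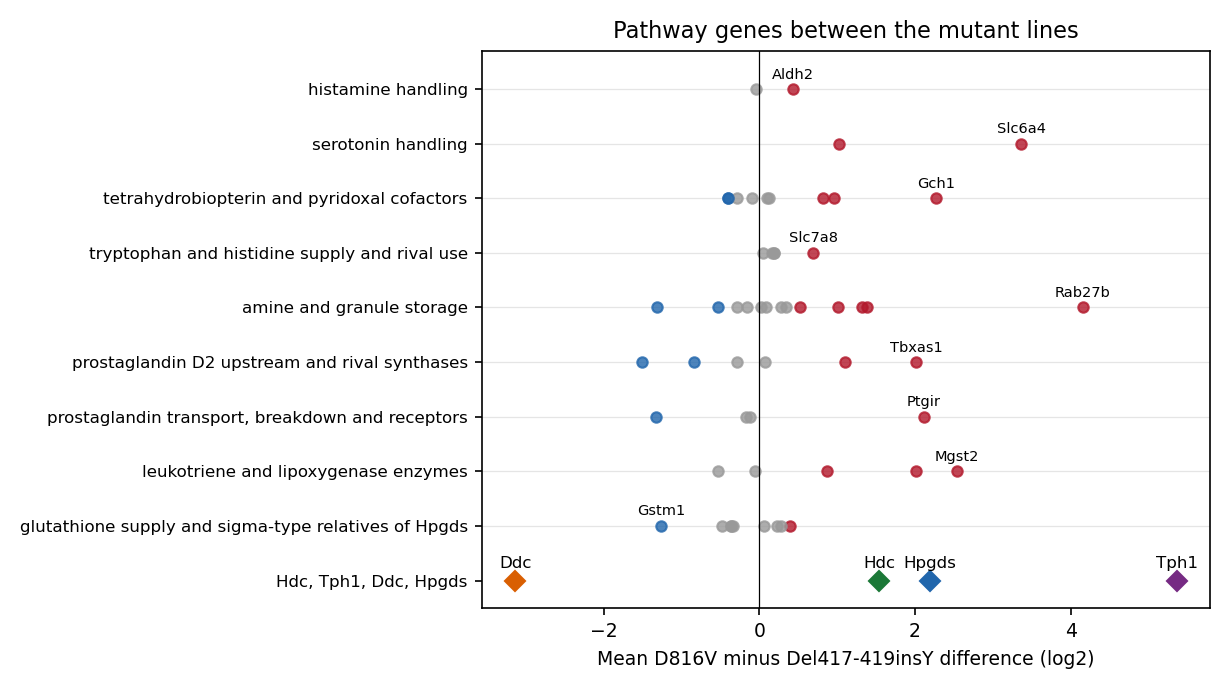
Mean D816V minus Del417-419insY difference (log2) of the 55 measured pathway genes, 1 point per gene by list, with red for those called higher, blue for those called lower and grey for those not called by limma, and the members as diamonds in the last line. The gene with the largest difference of each list is named, and it lies on the higher side in 8 of the 9 lists. The lists were chosen with earlier results of these data known.

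In serotonin handling both measured genes of 15 listed were higher in D816V cells, as Tph1 was. Slc6a4, the transporter that takes serotonin up into cells, stood at -2.65 and -3.51 in Del417-419insY cells without and with SCF, and at 0.82 and -0.26 in D816V cells. The lines did not overlap, and the mean difference was 3.36, or 10.3-fold (SE 0.12, limma adjusted p = 1.7e-04), and 15.7-fold after cyclic loess. Htr1b, a serotonin receptor, was 2.03-fold higher, at 0.13 and -0.38 in Del417-419insY cells against 1.19 and 0.59 in D816V cells. Both were lower with SCF in both lines, Slc6a4 by -0.85 and -1.08 and Htr1b by -0.51 and -0.60, and neither passed (limma adjusted p = 0.129 and 0.153), although Slc6a4 passed after cyclic loess (adjusted p = 0.0477).

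Tph1 needs tetrahydrobiopterin, and Hdc and Ddc need pyridoxal phosphate. Of 9 measured genes for these cofactors 3 were higher, 2 were lower and 4 did not pass, with a median of 0.10. Gch1, the rate-limiting enzyme of tetrahydrobiopterin synthesis, stood at -1.42 and -1.23 in Del417-419insY cells without and with SCF, and at 1.06 and 0.83 in D816V cells. Its mean difference was 2.27, or 4.82-fold (SE 0.15, limma adjusted p = 6.1e-04). Gchfr, its feedback regulator, was 1.94-fold higher (3.02-fold after cyclic loess), and Pdxk, the kinase that forms pyridoxal phosphate, 1.76-fold higher. Pdxp, the phosphatase that removes it, was 1.32-fold lower, a call that was lost after cyclic loess, quantile normalization, median centring and without the SCF term. The other lower gene, named after its value was seen, was Pts, an enzyme of tetrahydrobiopterin synthesis, at -0.40. Its call was lost under the same alternatives as that of Pdxp, so none of these cofactor genes was then called lower. Pcbd1, which recycles tetrahydrobiopterin, was at -0.09 and did not pass, and after cyclic loess it was called higher, at 0.57.

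Of 5 measured genes that supply or otherwise use tryptophan and histidine, 1 was higher and 4 did not pass. Slc7a8, an amino acid transporter, was 1.62-fold higher. Slc7a5 and Slc3a2, the 2 chains of another transporter of large neutral amino acids, were above 0 without SCF, at 0.77 and 0.54, and below 0 with SCF, at -0.40 and -0.17, and did not pass. Slc7a5 was lower with SCF in D816V cells, by -0.94, and at 0.22 in Del417-419insY cells. Wars, tryptophanyl-tRNA synthetase, was at 0.16.

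In histamine handling 2 of 12 listed genes were measured. Aldh2, an aldehyde dehydrogenase, was 1.35-fold higher, which was lost without the SCF term (adjusted p = 0.0779), and Aldh7a1 was at -0.05 and did not pass. No receptor or methyltransferase of histamine was among the genes analysed here.

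Amines are held in granules by a vesicular transporter and by heparin on the proteoglycan serglycin. Of 13 measured genes of storage and granule release 5 were higher, 2 were lower and 6 did not pass, with a median of 0.28. The counts higher and lower were 6 and 1 after cyclic loess or quantile normalization. They were 7 and 2 after centring, and 4 and 1 without the SCF term. Rab27b, a regulator of granule secretion, was at 4.16, Ndst2, which sulfates heparin in mast cells, at 1.38, and the membrane fusion protein gene Stx3 at 1.32. The others called higher, named after their values were seen, were Rab27a at 1.02 and the sulfotransferase gene Chst12 at 0.52. Ndst2 stood at -0.84 and -1.07 in Del417-419insY cells without and with SCF and at 0.59 and 0.26 in D816V cells. Glce, an epimerase in heparin synthesis, was lower, by -1.32, so genes of heparin synthesis lay on both sides. Vamp7, another fusion protein gene, was at -0.53, a call that was lost under 4 alternatives, cyclic loess among them. Slc18a2, the vesicular amine transporter, and Srgn, serglycin, were named here after their values were seen. They were at 0.46 and 0.43 without SCF and 0.11 and 0.26 with SCF, and did not pass (limma adjusted p = 0.148 and 0.0711). However, Srgn was called higher after cyclic loess, quantile normalization and centring, and Slc18a2 after centring.

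Upstream of Hpgds and among its rivals for prostaglandin H2, 2 of 6 measured genes were higher and 2 lower, with a median of -0.10 that was 0.08 after cyclic loess. Pla2g4a, the cytosolic phospholipase that releases arachidonic acid, was 1.79-fold lower in D816V cells, and Pla2g12a, a secreted phospholipase, 2.14-fold higher. Ptgs2, the inducible cyclooxygenase, stood at 0.30 and -0.01 in Del417-419insY cells without and with SCF, and at -0.47 and -2.25 in D816V cells. It was 2.83-fold lower (mean -1.50, SE 0.34, limma adjusted p = 0.0242; 0.0778 without the SCF term), and its lowest value was on the D816V array with SCF. Its SCF difference in D816V cells was -1.78. Tbxas1, which turns prostaglandin H2 into thromboxane, was 4.05-fold higher, at 0.11 and -0.18 in Del417-419insY cells against 2.00 and 1.97 in D816V cells.

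Of 4 measured genes for prostaglandin transport, breakdown and receptors, Ptgir, the prostacyclin receptor, was 4.32-fold higher, and Ptgr1, a reductase that inactivates prostaglandins and leukotrienes, 2.52-fold lower. The exporter gene Abcc4 and the receptor gene Ptger4 were at -0.17 and -0.12 and did not pass. Of 5 genes for leukotrienes 3 were higher, with a median of 0.87. Besides Mgst2, at 5.81-fold, these were Ltb4r1, a leukotriene B4 receptor, at 4.03-fold, and Lta4h, which makes leukotriene B4, at 1.83-fold, while Mgst3 was at -0.53 and did not pass, although it was called lower with the highest-mean probe set (adjusted p = 0.0392).

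Hpgds uses glutathione. Of 9 measured genes of glutathione supply and other glutathione transferases 1 was higher and 1 lower, with a median of -0.34 (-0.11 after cyclic loess). The counts were 1 and 3 with the highest-mean probe set, 3 and 1 after centring and 0 and 1 without the SCF term. Gss, glutathione synthetase, was 1.32-fold higher, which was lost without the SCF term (adjusted p = 0.0885), and Gstm1 was 2.40-fold lower, or 1.56-fold after cyclic loess. Gstt2 and Gsto1 were at -0.48 and -0.36 and did not pass, and Gclm was at 0.06.

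The members were set beside markers of the cell types that are known to express them. Of 15 measured mast cell markers 10 were higher and 1, Kit itself, was lower (-1.42) in D816V cells. These counts were 12 and 1 after cyclic loess or quantile normalization, 13 and 1 after centring, and 6 and 1 without the SCF term. Of all genes, 17.9% were called higher and 24.7% lower. The number of all genes called higher also moved, from 1147 to 1628, 1526, 1720 and 690 under these 4 alternatives in turn. Whether the Kit probe sets read the vectors' KIT is not known. The median difference of the list was 0.62, and Adora3, Fcer1a and Rab27b had its largest differences. Its medians were -0.76 and -0.57 on the Del417-419insY arrays without and with SCF and 0.41 and 0.10 on the D816V arrays. Slc18a2, Srgn and Rab27b stand in this list and in the storage list. Adora3, an adenosine receptor of mast cells, stood at -1.16 and -1.68 in Del417-419insY cells and at 3.31 and 2.60 in D816V cells, a 20.8-fold difference, and Fcer1a, of the IgE receptor, was 66.6-fold higher, or 16.0-fold after cyclic loess and 38.4-fold after quantile normalization. Of 4 basophil markers Mcpt8 was called higher, by 2.89-fold, and none lower, with list medians of -0.60 and -0.66 against 0.17 and -0.20. Gata1 and Cebpa were at 0.33 and 0.26 and did not pass, although Cebpa was called higher after cyclic loess, quantile normalization and centring, and Gata1 after centring. The medians of the mast cell list were thus higher on the D816V arrays, where Tph1, Hdc and Hpgds were higher and Ddc was lower, although 4 of its 15 genes were not called and Kit lay on the other side. The part of these markers in the members' differences was not tested.

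Markers of other cells moved as well, beside 17.9% of all genes called higher and 24.7% called lower. Of 5 megakaryocyte markers 4 were lower in D816V cells and 1 higher, with Ppbp at -4.93, Nrgn at -1.56, Pf4 at -1.42, Gp9 at -1.21 and Itgb3 at 2.26. Of 6 erythroid markers 4 were lower and 2 higher, with Car1, Ermap, Klf1 and Epor at -2.95, -1.71, -1.14 and -0.42 and Icam4 and Car2 at 0.92 and 0.74. Pf4, Gp9, Epor, Icam4, Car2, Kit and Lyz2 were named after their values were seen. Both measured markers of type 2 lymphoid cells were lower, Rora by -2.81 and Gata3 by -0.71, as were both of eosinophils, Il5ra by -2.04 and Siglecf by -1.04. Of 4 macrophage and antigen-presenting markers 3 were higher, Cd68, Cd74 and Itgax, at 2.81, 1.85 and 0.93. The other, Lyz2, was at -0.86 and did not pass (adjusted p = 0.0583), but was called lower with the highest-mean probe set, with centred arrays and after quantile normalization. Their part in the members' differences was not tested either. Lists of 11 enteroendocrine and neuroendocrine markers and 7 of catecholaminergic neurons, other cells that use Ddc, were looked up as well. None of these markers was among the genes with values.

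**Figure D4:**
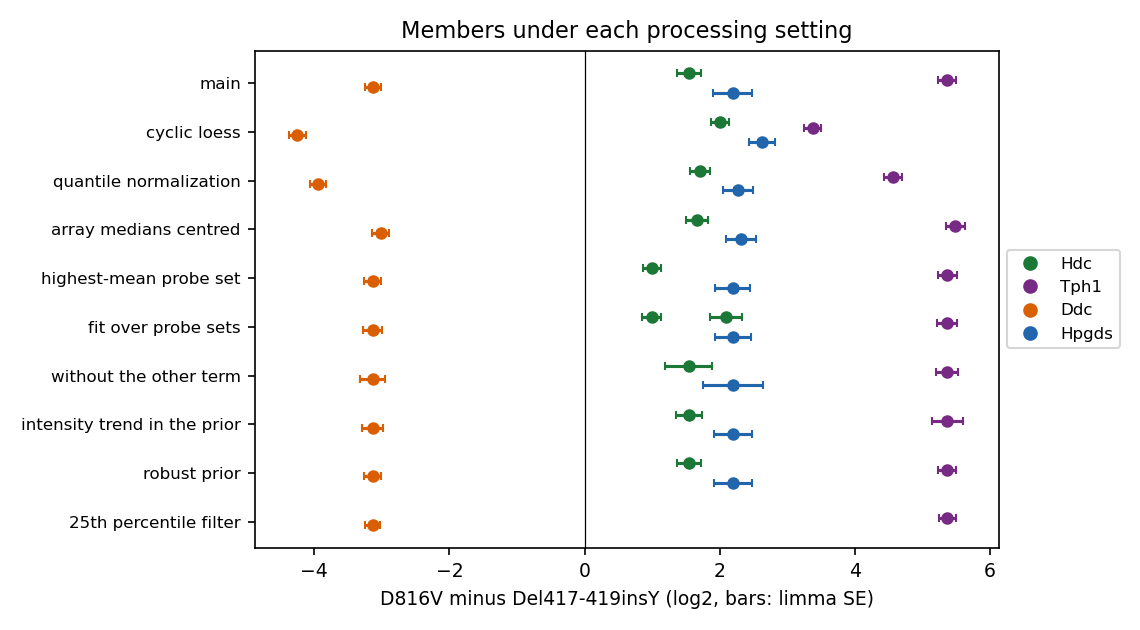
Mean D816V minus Del417-419insY difference (log2) of the members under the processing reported (main) and each alternative, with limma's SE as bars and 2 points for Hdc in the fit over probe sets. Every value keeps its side of 0, and the largest moves are those of Tph1 and Ddc after cyclic loess. For Tph1, Ddc and Hpgds only cyclic loess, quantile normalization and centring could move the value. Hdc and Hpgds have no value with the 25th percentile filter.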

How the data were processed

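Total RNA of 4 EML cultures was hybridised to Affymetrix M430 2.0 arrays, 1 per group, and read with Affymetrix software, per the labels' protocols. The deposited values were made by the authors with RMA, per the submitters' processing notes, and are taken as log2, which RMA gives; neither the base, the zero of each probe set nor the filter that left 10861 of 45101 probe sets is given in the sources used here. Of the probe sets 9633 had 1 platform symbol, 264 several and 964 none; the latter were left out. Symbols were updated through the gene ID to RefSeq GRCm38.p6 (11 without a match kept theirs). Probe sets of 1 gene were averaged, and no filter on low values was applied.

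limma 3.58.1 in R 4.3.3 (lmFit, eBayes, ~ genotype + SCF) was fitted to 6404 genes on all 4 arrays (two-sided, threshold 0.05 after Benjamini-Hochberg adjustment), after a test on simulated data. The fit has 1 residual degree of freedom per gene and a prior of 4.1 (SD 0.127). SE is limma's. Differences within a condition or a line have no test. Alternatives in the values were cyclic loess, quantile normalization, median centring, the highest-mean probe set and a fit over probe sets. Others were a fit without the other term, an intensity trend, a robust prior and a filter at the 25th percentile of mean relative value. Named were the members, the 3 genes nearest to each, and in each list those with the largest mean differences (up to 4 by genotype and 2 by SCF, or 3 in a marker list). The members and lists were chosen with earlier results of these data known.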

Additional observations from a re-analysis of the deposited data

Results flagged for a closer look

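Some SCF responses lay on opposite sides of 0 in the 2 lines; with 1 array per group these differences were not tested. Tph1 was at -0.28 in the Del417-419insY line and 0.03 in the D816V line, a difference of 0.30, and the Hdc probe set 1454713_s_at was at 0.17 and -0.88, a difference of -1.05. The other Hdc probe set was lower with SCF in both lines. Among the pathway genes Slc7a5 was at 0.22 and -0.94 (difference -1.16), Gstm1 at 1.21 and -0.10 (-1.32), Ptgir at -0.58 and 0.16 (0.74) and Aldh2 at 0.14 and -0.01 (-0.15). The mutant difference likewise changed sides between the conditions for the transporter chains Slc7a5, at 0.77 without and -0.40 with SCF (-1.16), and Slc3a2, at 0.54 and -0.17 (-0.71).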

How the results depend on the processing

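All 4 members kept the direction of their difference between the lines and stayed past the threshold under every alternative that gave them a value. Tph1, Ddc and Hpgds have 1 probe set each, so only cyclic loess, quantile normalization and centring could change their differences. The other alternatives left these as they were and could change only the adjusted p. The mean differences ranged from 0.99 to 2.09 for Hdc, 3.38 to 5.48 for Tph1, -4.25 to -3.02 for Ddc and 2.19 to 2.62 for Hpgds, with adjusted p up to 0.0226, 1.6e-04, 1.9e-04 and 0.0155. With the filter at the 25th percentile 1 member was called higher in place of 3, because Hdc and Hpgds fell under it. That filter ranks genes by the mean of relative values, whose zero differs between probe sets, so it does not select on signal. The highest-mean probe set, the intensity trend and cyclic loess use such means too. For SCF 1 member, Hdc, was called lower with the highest-mean probe set (-1.14), after median centring (-0.69) and in the fit over probe sets (-1.14 for 1451796_s_at). The cause of these changes was not tested. Cyclic loess moved the median difference of all genes between the lines from -0.10 to 0.04, a shift of 0.15, quantile normalization by 0.11 and centring by 0.12; relative to the median, Tph1 was at 5.47 as reported, 3.33, 4.56 and 5.47, and Ddc at -3.04, -4.29, -3.95 and -3.04. Without the SCF term 690 genes were called higher and 913 lower, and over probe sets 1810 and 2855 of 10861. For SCF 13 genes were called higher and 29 lower after cyclic loess, 41 and 215 with the highest-mean probe set, 113 and 143 after centring, 59 and 507 over probe sets, 2 and 8 with the trend, and 1 and 1 after quantile normalization. The SCF difference of Slc6a4 passed with the highest-mean probe set, with centring and with cyclic loess. Of 53 genes named by rule beside the members 10 moved by over 1.5 times between the lines, 8 after cyclic loess and 3 after quantile normalization; among those, Siglecf was at -0.38 and Car1 at -2.36 after the former and Ppbp at -5.75 and Rora at -3.41 after the latter. Of the mutant differences of these genes, 386 kept their call under an alternative, 11 lost it and 7 gained it. Signal over background is not known for these values. Array-specific background correction could not be tried from processed values.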
